A study of Mus musculus with 38 samples.

Results

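Dermal papilla cells of the mouse hair follicle were compared between mutant and wild type dorsal skin at postnatal day 30 (P30), with 2 bulk RNA sequencing libraries in each genotype. The genes described are the protein-coding genes outside chromosomes X and Y with 1 FPKM (a fragment count scaled to transcript length and to the fragments mapped in the library) or more in at least 2 of these 4 libraries, which were 11856 of the 21417 genes in the dermal papilla table. The 4 libraries are part of a series of 38, in which dermal papilla cells were also profiled in 2 libraries of each genotype at day 56 (P56). Mutant mice carried *Tyr*-*Nras* Q61K, an oncogenic *Nras* under the enhancer and promoter of the tyrosinase gene, which act in melanocytes, and they model congenital nevi with excess hair growth. The labels call the mice only mutant or wild type. Wild type follicles grow (anagen) at P30 and rest (telogen) at P56, while mutant skin also holds follicles in anagen out of turn. Because the transgene is driven in melanocytes, *Nras* in dermal papilla cells does not check the genotype labels. *Nras* read 30.6 and 28.2 FPKM in wild type and 19.7 and 23.99 FPKM in mutant cells, and the difference did not pass the test (log2 difference -0.42 ± 0.21, limma adjusted p = 0.277, with ± the standard error in all such values).

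The dermal papilla is a small cluster of specialized fibroblasts at the base of the follicle. It instructs the epithelial cells around it through secreted WNT, BMP and FGF family proteins and their antagonists, and through R-spondins, which amplify WNT signalling. It also sets the type of pigment that follicle melanocytes make, through the secreted protein agouti. In a nevus, melanocytes that carry an activated oncogene stop dividing and persist in the dermis as senescent cells that secrete signalling proteins.

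The libraries of the 2 genotypes also differed in sex. *Ddx3y*, of the Y chromosome, read 31.2 and 46.3 FPKM in wild type P30 libraries and was listed at 0 in both mutant P30 libraries. *Xist*, the RNA that coats the inactive X chromosome, was listed at 0 in both wild type libraries and read 20.4 and 23.9 FPKM in the mutant libraries. At P56 the order was the other way round, with *Ddx3y* at 46.8 and 38.8 FPKM in mutant libraries and listed at 0 in both wild type libraries. Genotype and sex therefore cannot be told apart within P30, and a gene that moves the same way in mutant cells at both ages does so against opposite orders of sex. The effect of sex on genes outside X and Y was not tested. The FPKM sums of the 8 dermal papilla libraries lay between 583500 and 647400, with 12420 to 13205 genes at 1 FPKM or more. Across the tested genes the log2 values of the 2 libraries of a group correlated at 0.97 in wild type and 0.99 in mutant cells at P30. The study's methods speak of biological triplicates, whereas each group used here holds 2 libraries and the labels name no animals. The p-values thus rest on the spread of these libraries alone, and that spread may be technical.

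Of the 11856 genes, 175 rose and 485 fell in mutant dermal papilla at P30 (limma on log2(FPKM + 1), adjusted p under 0.05 and 2-fold or more), which is 1.48% and 4.09% of the genes tested and 5.57% together. The median log2 difference of all tested genes was -0.13. When libraries were rescaled to a common median ratio, that median moved to 0.01 and the split became 213 higher and 319 lower. With quantile normalization the split became 273 higher and 376 lower. The share of lower genes among those called thus went from 73.5% to 60.0% and 57.9%. Both mutant libraries lay above both wild type libraries in 2210 genes (18.6%) and below them in 4494 genes (37.9%). Leaving out 1 of the 4 P30 libraries lowered the counts, to 118 higher and 264 lower without the first wild type library and 41 and 188 without the second. They were 18 and 52 without the first mutant library and 22 and 119 without the second. In what follows, a call is said to hold without any 1 P30 library where it was made in each of these 4 fits.

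**Figure D1:**
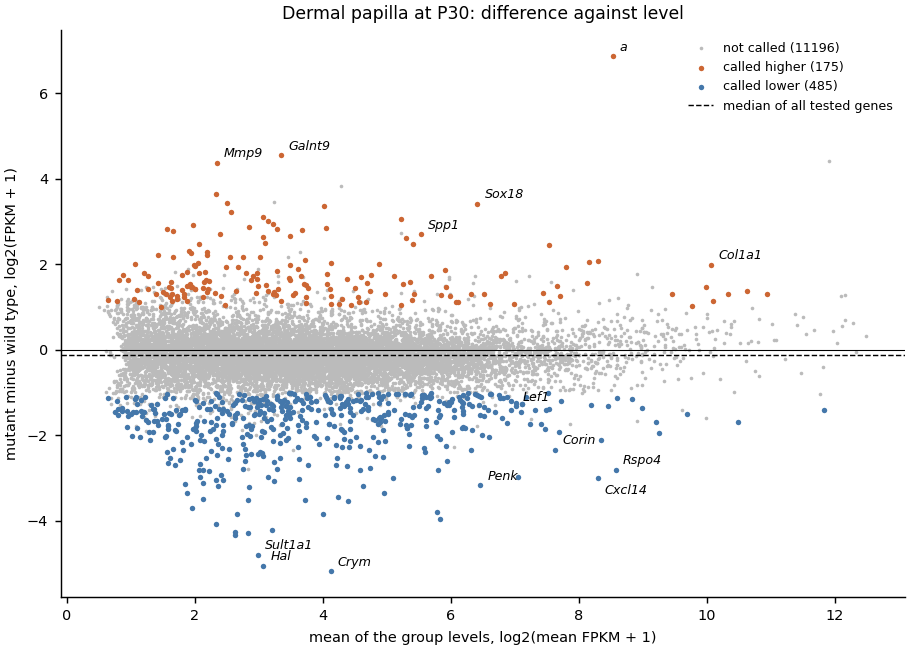
Each point is 1 of the 11856 tested genes, with the mean of the group levels on the x axis as log2(mean FPKM + 1) and the mutant minus wild type difference in log2(FPKM + 1) on the y axis. The 175 genes called higher are orange and the 485 called lower blue, the dashed line is the median of all genes at -0.13, and agouti (*a*) stands highest at 6.87.

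The cells carried dermal papilla transcripts in both genotypes. The summed level of 47 dermal papilla signature genes was 22580 and 26570 FPKM in wild type and 26570 and 23250 FPKM in mutant libraries, so the groups overlapped. *Crabp1*, a retinoic acid binding protein that made the largest part of this sum, read 3541 and 3736 FPKM against 6060 and 4763 FPKM. Of the 46 signature genes tested, 3 rose and 4 fell, against 1.48% and 4.09% of all genes, with a median log2 difference of 0.08. The rises were *Sox18*, *Cxcr4* and *Igfbp5*, and the falls were *Rspo4*, *Corin*, *Inhba* and *Lef1*. Both mutant libraries lay above both wild type libraries in 21 of the 46 and below them in 19, against 18.6% and 37.9% of all genes. *Sox2*, a transcription factor of the papilla in some hair types, read 3.83 and 3.59 FPKM against 3.61 and 5.71 FPKM, with overlapping groups. *Alpl*, an alkaline phosphatase used to stain the papilla, read 401 and 279 FPKM in wild type and 990.0 and 875 FPKM in mutant cells and did not pass the test (log2 difference 1.47 ± 0.79, limma adjusted p = 0.325). *Vcan*, a proteoglycan of the growing papilla, read 344 and 272 FPKM against 533 and 444 FPKM (log2 difference 0.67 ± 0.64, limma adjusted p = 0.612). For *Alpl* and *Vcan* the mutant libraries were above the wild type libraries, while the 2 wild type P56 libraries, which share the estimate of the spread, lay far apart, at 27.6 and 298 FPKM for *Alpl*. With the 4 P30 libraries alone the test called 7 signature genes higher and 9 lower, and when 1 P30 library was left out it called between 1 and 3 higher and between 0 and 2 lower.

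Markers of other cells were read in the same libraries. *Ptprc*, the pan-leukocyte marker, was at most 0.08 FPKM and *Cdh5*, of endothelium, at most 0.05 FPKM in the 4 libraries. Keratinocyte markers summed to 262 and 169 FPKM in wild type and 295 and 341 FPKM in mutant libraries, and *Epcam* among them was at most 3.25 FPKM. *Krt14*, a keratin of basal and outer sheath keratinocytes, was present at 42.5 and 26.6 FPKM against 76.6 and 92.3 FPKM. Hair matrix and shaft genes summed to 378 and 348 FPKM against 97.5 and 119 FPKM, of which *Crym* made 24.05%. Dermal sheath and mural cell markers summed to 523 and 306 FPKM against 441 and 450.4 FPKM, of which *Acta2*, at 287 and 215 FPKM against 294 and 292 FPKM, made 63.3%, and 1 of 11 tested members rose, *Acan*. Dermal fibroblast markers summed to 669 and 599 FPKM against 634 and 684 FPKM, with 1 rise, *Dpt*, and 1 fall, *Fbn1*, among 14 tested. Of all genes 1.48% were called higher and 4.09% lower. Hair matrix genes were thus the cell type list among these whose sum was clearly lower in mutant libraries. In bulk samples, fewer cells of a type and less RNA per cell cannot be told apart. The sort gate for dermal papilla cells is not given here.

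On the log2(FPKM + 1) scale the largest rise was in agouti. The gene *a* (GRCm38 chr2:154791402-155051012, plus strand) encodes the secreted antagonist of the melanocortin 1 receptor that makes melanocytes switch from black to yellow pigment. Its transcript read 38.9 and 27.9 FPKM in wild type and 4167 and 3757 FPKM in mutant cells. Both mutant libraries lay far above both wild type libraries, with a ratio of group means of 119 (log2 difference 6.87 ± 0.37, limma adjusted p = 3.92e-05), and the call held without any 1 P30 library. *Corin*, a serine protease of the dermal papilla that is known to limit agouti activity, fell from 332 and 570.1 FPKM to 82.8 and 88.4 FPKM (log2 difference -2.33 ± 0.47, limma adjusted p = 0.0208). The *Corin* call was made in 1 of the 4 fits without a P30 library. At P56 agouti read 28.4 and 41.3 FPKM in wild type and 51.8 and 128 FPKM in mutant cells, a difference that did not pass the test (log2 difference 1.23, limma adjusted p = 0.0555).

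The other large rises were in genes of varied roles. *Sox18*, a transcription factor of papilla and endothelium, rose from 31.9 and 19.2 FPKM to 281 and 266 FPKM (log2 difference 3.42 ± 0.31, limma adjusted p = 0.000551). *Galnt9*, an enzyme of O-linked glycosylation, rose from 1.67 and 0.61 FPKM to 42.5 and 53.05 FPKM. *Spock1*, a matrix proteoglycan, rose from 6.14 and 2.26 FPKM to 45.4 and 52.6 FPKM. All 3 were several times higher in each mutant library than in either wild type library. *Ncald*, a neuronal calcium sensor, rose from 14.5 and 9.47 FPKM to 101 and 109.7 FPKM, and *Chn2*, a GTPase activator for Rac, from 1.38 and 1.85 FPKM to 14.1 and 23.2 FPKM. The calls of these 5 genes and of *Lemd1* held without any 1 P30 library. *Vwc2*, a secreted BMP antagonist, rose from 3.1 and 0.85 FPKM to 19.96 and 25.6 FPKM, and *Ptn*, the growth factor pleiotrophin, from 5.67 and 4.61 FPKM to 38.9 and 48.1 FPKM. *Npy*, a neuropeptide, rose from 4.59 and 0.34 FPKM to 17.2 and 25.5 FPKM. *Krt79*, a keratin of the upper follicle, rose from 3.03 and 1.72 FPKM to 21.6 and 27.9 FPKM. It was the 1 called gene of 14 tested keratinocyte markers, against 5.57% of all genes. *Csn1s1*, *Msantd1* and *Tmem215* were the remaining genes of the 15 largest rises, with log2 differences of 3.65, 3.43 and 3.23. *Csn1s1*, *Msantd1*, *Npy*, *Krt79* and *Ptn* were called in 1 of the 4 fits without a P30 library, *Vwc2* in 2 and *Tmem215* in none.

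**Figure D2:**
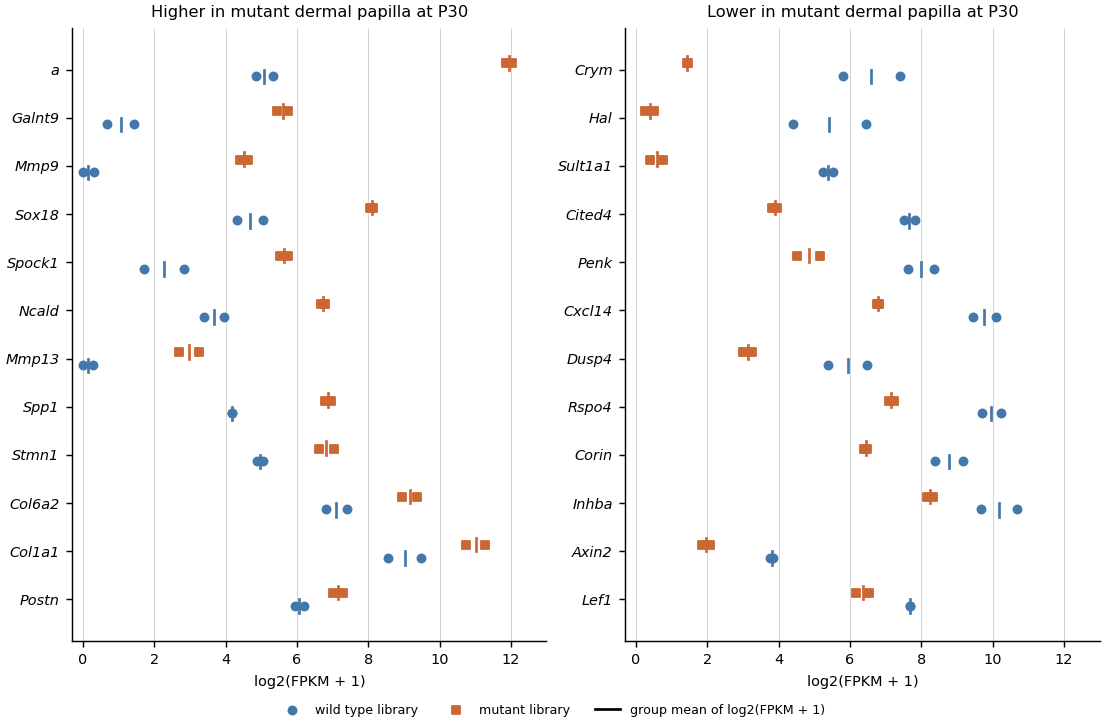
Each row is a gene, with log2(FPKM + 1) on the x axis, circles for the 2 wild type and squares for the 2 mutant P30 libraries, and short lines for the group means. In every gene drawn the libraries of the genotypes do not overlap, from *a* at 38.9 and 27.9 against 4167 and 3757 FPKM to *Crym* at 54.5 and 169 against 1.73 and 1.67 FPKM.

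Osteopontin and a pair of matrix proteases rose. *Spp1* (chr5:104435118-104441050, plus strand), which encodes the secreted glycoprotein osteopontin, read 17 and 17.2 FPKM in wild type and 110.0 and 123 FPKM in mutant cells, a ratio of group means of 6.81 (log2 difference 2.70 ± 0.20, limma adjusted p = 0.000237). *Mmp9* (chr2:164940780-164955850, plus strand), a gelatinase, read 0.23 and 0 FPKM in wild type and 20.2 and 23.8 FPKM in mutant cells (log2 difference 4.37 ± 0.24, limma adjusted p = 3.92e-05). *Mmp13* (chr9:7272514-7283331, plus strand), a collagenase, read 0 and 0.21 FPKM in wild type and 5.41 and 8.6 FPKM in mutant cells (log2 difference 2.83 ± 0.32, limma adjusted p = 0.00114). The ratio of group means was larger for *Mmp9* than for agouti, at 191, but stood on wild type values near 0. The mutant libraries lay far above the wild type libraries in all 3 genes, and the 3 calls held without any 1 P30 library. Of 9 tested genes for osteopontin and its receptors, *Spp1* alone was called, against 5.57% of all genes. *Cd44*, a hyaluronan receptor that also binds osteopontin, read 78.6 and 67.1 FPKM against 55.02 and 54.2 FPKM (log2 difference -0.41 ± 0.18, limma adjusted p = 0.24).

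Pigment cell transcripts were low. *Tyr*, tyrosinase, read 0.03 and 0 FPKM in wild type and 0.91 and 0.58 FPKM in mutant cells and did not reach the level needed for the test. *Dct*, dopachrome tautomerase, read 3.13 and 0.89 FPKM against 3.06 and 5.42 FPKM, with overlapping groups. *Mlana*, a melanosome protein, read 1.34 and 3.3 FPKM against 5.66 and 10.2 FPKM (log2 difference 1.45 ± 0.39, limma adjusted p = 0.0559), so the mutant libraries were higher without passing the test. Of 15 melanocyte markers 11 were tested and limma called 0, while 6 had an unadjusted p under 0.05 and the fit of the 4 P30 libraries alone called 3 higher and 2 lower. Their median log2 difference was 0.87. The list summed to 111 and 249 FPKM in wild type and 62.2 and 91.7 FPKM in mutant libraries, of which *Ednrb*, an endothelin receptor, made 80.1%. *Ednrb* itself read 91.6 and 234 FPKM against 35.5 and 49.7 FPKM (log2 difference -1.78 ± 0.47, limma adjusted p = 0.0552). In 6 of the 11 tested markers both mutant libraries lay above both wild type libraries, against 18.6% of all genes. In 2 they lay below them, against 37.9% of all genes. More of the tested markers thus lay higher than lower in mutant libraries. The part of melanocytes in the rise of *Spp1*, *Mmp9* and *Mmp13* was not tested.

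Bulge stem cells of the same age and genotypes give another reading of these genes, in a table normalized separately and set beside the papilla with no test. All 4 P30 bulge libraries held *Ddx3y*, at 16.1 to 21.1 FPKM, so the libraries of both genotypes there carried Y chromosome transcripts. *Spp1* read 0.1 and 0.1 FPKM against 108 and 489 FPKM in bulge of wild type and mutant skin, where 0.1 FPKM is the lowest value that table lists. *Mmp9* read 0.2 and 0.13 FPKM against 45.98 and 115 FPKM, and *Mmp13* read 0.14 and 0.14 FPKM against 16.8 and 39.7 FPKM. All 3 genes were thus higher in mutant bulge as well. Agouti, *Galnt9*, *Sox18* and *Corin* were at most 0.4 FPKM in every P30 bulge library.

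Of 49 tested collagens and matrix proteins 7 rose and 4 fell, against 1.48% and 4.09% of all genes, with a median log2 difference of 0.07. *Col6a2*, of type VI collagen, rose from 168 and 112 FPKM to 662 and 493 FPKM (log2 difference 2.05 ± 0.26, limma adjusted p = 0.00208). *Col1a1*, of type I collagen, rose from 713 and 377 FPKM to 2498 and 1700 FPKM, and *Fbln2*, fibulin 2 of elastic fibres and basement membranes, from 132 and 95.8 FPKM to 443 and 416 FPKM. *Col6a1*, *Col1a2*, *Tnn* and *Postn* were the other rises. *Ogn*, a small leucine-rich proteoglycan, fell from 58.2 and 51.1 FPKM to 11.4 and 13.9 FPKM, and *Lama4*, *Col13a1* and *Fbn1* fell as well. In each of these 11 genes the groups did not overlap. When 1 P30 library was left out, between 0 and 8 members were called higher and between 0 and 4 lower. *Mmp2*, a gelatinase of fibroblasts, fell from 165 and 228 FPKM to 45.4 and 47.95 FPKM and held without any 1 P30 library, so the 2 gelatinases moved in opposite directions. Of 24 tested matrix proteases and inhibitors *Mmp9* and *Mmp13* rose and *Mmp2*, *Timp4* and *Adamts2* fell.

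Mitosis genes moved together. Of 34 tested mitosis genes 21 rose and none fell, against 1.48% of all genes called higher, and in 33 of the 34 both mutant libraries lay above both wild type libraries, against 18.6% of all genes. Their median log2 difference was 1.27 and lay between 1.09 and 1.38 when 1 P30 library was left out, although between 0 and 7 members were then called. *Cdk1*, the kinase that drives entry into mitosis, rose from 10.6 and 7.24 FPKM to 27.1 and 27.6 FPKM and had the highest mutant level of the genes called. *Knstrn*, a kinetochore and spindle protein, rose from 0.63 and 1.36 FPKM to 5.99 and 7.69 FPKM (log2 difference 1.99 ± 0.29, limma adjusted p = 0.00486). *Birc5*, survivin, rose from 7.17 and 3.63 FPKM to 18.9 and 25.4 FPKM, *Top2a*, a topoisomerase of dividing cells, from 5.1 and 3.26 FPKM to 16.9 and 17.5 FPKM, and *Plk1*, a mitotic kinase, from 1.46 and 0.98 FPKM to 4.9 and 9.03 FPKM. These were low levels in both genotypes, with mutant libraries the higher ones in each gene. *Mki67*, the proliferation antigen, read 0.47 and 0.27 FPKM against 1.42 and 1.5 FPKM and did not pass (log2 difference 0.85 ± 0.27, limma adjusted p = 0.1). Of 30 tested DNA replication genes 3 rose, *Mcm2*, *Mcm5* and *Mcm6* of the replicative helicase, with a median log2 difference of 0.51. Dividing keratinocytes also express these genes. Of the sums given above, that of keratinocyte markers was lower in the wild type libraries and that of hair matrix and shaft genes higher. The part of RNA from either in the rise of mitosis genes was not tested.

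**Figure D3:**
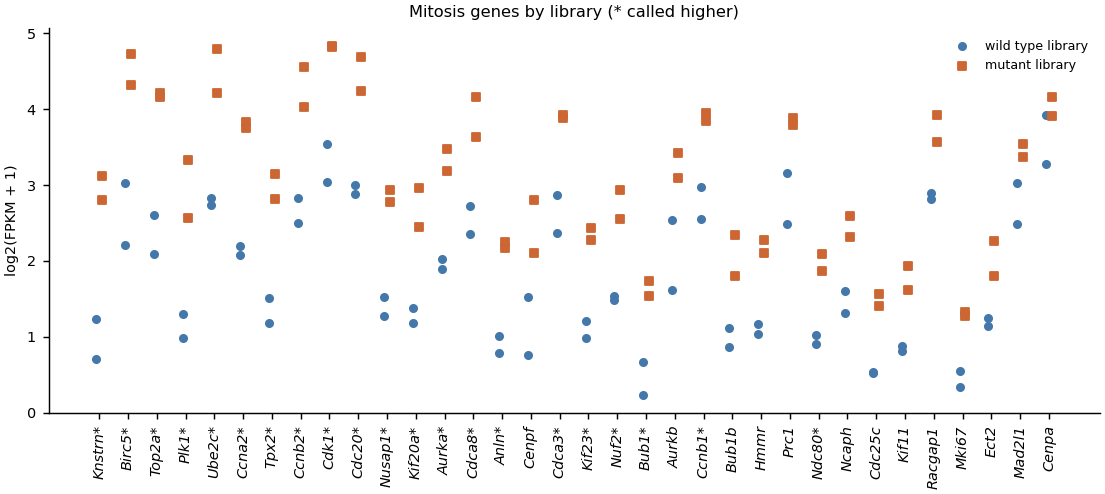
Each position on the x axis is 1 of the 34 tested mitosis genes, with log2(FPKM + 1) on the y axis, circles for the 2 wild type and squares for the 2 mutant P30 libraries. An asterisk marks the 21 genes called higher, and 33 of the 34 genes have both squares above both circles.

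Promoters of mitosis genes are known to carry the cell cycle homology element (TTTGAA), through which these genes are kept off in resting cells. This element is known to lie close to CCAAT boxes (CCAAT). Windows of 250 bases before the gene start were read from RefSeq (GRCm38.p6) for 8969 of the 11856 genes, and both strands were searched. Both motifs stood in the window of 8 of the 29 mitosis genes that had one, and in 3.89% of all 8969 windows. The element alone or with others was in 10.1% and the CCAAT box in 36.4% of all windows. The 3 called mitosis genes with both motifs and the largest differences are shown because their windows hold both. They run 5′ to 3′ on the gene's own strand and end at the base before the start, with matches on either strand in capitals. In *Ccnb2* the 2 motifs are not close, with the element at -167 and the nearest CCAAT box at -87 from the start. Of the matches drawn, 1 pair of CCAAT boxes in *Ube2c* overlaps. These are matches of letters and not measured sites.
Top2a, chr11:99024190-99024439, minus strand: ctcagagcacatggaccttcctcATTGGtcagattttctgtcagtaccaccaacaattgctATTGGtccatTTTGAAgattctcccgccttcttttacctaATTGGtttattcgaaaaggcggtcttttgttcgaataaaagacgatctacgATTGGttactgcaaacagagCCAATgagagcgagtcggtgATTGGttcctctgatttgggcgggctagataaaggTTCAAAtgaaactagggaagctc
Ube2c, chr2:164769679-164769928, plus strand: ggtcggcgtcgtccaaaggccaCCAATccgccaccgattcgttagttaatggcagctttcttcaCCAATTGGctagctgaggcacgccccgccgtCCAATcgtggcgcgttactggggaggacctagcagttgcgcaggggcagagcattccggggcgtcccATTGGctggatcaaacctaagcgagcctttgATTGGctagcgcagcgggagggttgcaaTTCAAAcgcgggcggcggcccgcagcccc
Ccnb2, chr9:70421555-70421804, minus strand: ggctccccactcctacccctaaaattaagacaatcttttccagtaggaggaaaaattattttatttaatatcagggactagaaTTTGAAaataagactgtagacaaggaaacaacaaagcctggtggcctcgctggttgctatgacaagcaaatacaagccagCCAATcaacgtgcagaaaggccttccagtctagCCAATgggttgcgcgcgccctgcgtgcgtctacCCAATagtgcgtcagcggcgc
These genes rose together, *Ube2c*, a ubiquitin conjugating enzyme of mitotic exit, from 6.11 and 5.64 FPKM to 17.5 and 26.8 FPKM and *Ccnb2*, cyclin B2, from 6.1 and 4.67 FPKM to 15.3 and 22.4 FPKM.

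Of 28 tested immediate early and heat shock genes 5 rose and none fell, against 1.48% and 4.09% of all genes, with a median log2 difference of 0.31. *Jun*, a subunit of the AP-1 transcription factor, rose from 411 and 487 FPKM to 1119 and 1081 FPKM (log2 difference 1.30 ± 0.23, limma adjusted p = 0.0116). *Klf2*, a transcription factor known from endothelium and quiescent T cells, rose from 13.2 and 21.1 FPKM to 83.8 and 114 FPKM, *Zfp36*, which destabilizes cytokine mRNAs, from 1101 and 860.0 FPKM to 2694 and 2392 FPKM, and *Klf6* from 44.5 and 54.2 FPKM to 111 and 137 FPKM. *Btg2* was the other rise. None of the 5 calls was made in a fit without 1 P30 library, where between 0 and 1 members of the list were called higher and between 0 and 3 lower. The fit of the 4 P30 libraries alone called 8 higher and 4 lower. *Fos*, the partner of Jun, read 3661 and 2309 FPKM against 7647 and 6441 FPKM and did not pass (log2 difference 1.27 ± 0.40, limma adjusted p = 0.0967). Of 18 tested actin, tubulin and related cytoskeleton genes, a list chosen after values were seen, 4 rose, *Stmn1*, *Pfn2*, *Actg1* and *Vim*. *Stmn1*, which destabilizes microtubules, rose from 32.3 and 28.2 FPKM to 97.7 and 129 FPKM, and this call held without any 1 P30 library.

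The AP-1 site (TGANTCA) was searched in the same windows. It stood in 3.87% of the 8969 windows and in 2 of the 13 windows of genes that rose at both ages. These were *Mmp13* and *Lrrc15*, a membrane protein of fibroblasts that rose from 37.8 and 33.9 FPKM to 93.2 and 107 FPKM at P30. Their windows are shown because they hold the site, with the match in capitals. As above, these are matches of letters and not measured sites, and a part of AP-1 in these rises was not tested.
Mmp13, chr9:7272264-7272513, plus strand: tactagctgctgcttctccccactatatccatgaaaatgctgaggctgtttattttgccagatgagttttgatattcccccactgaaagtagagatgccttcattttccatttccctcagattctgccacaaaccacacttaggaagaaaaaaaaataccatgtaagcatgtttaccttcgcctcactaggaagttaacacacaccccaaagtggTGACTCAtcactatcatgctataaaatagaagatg
Lrrc15, chr16:30283255-30283504, minus strand: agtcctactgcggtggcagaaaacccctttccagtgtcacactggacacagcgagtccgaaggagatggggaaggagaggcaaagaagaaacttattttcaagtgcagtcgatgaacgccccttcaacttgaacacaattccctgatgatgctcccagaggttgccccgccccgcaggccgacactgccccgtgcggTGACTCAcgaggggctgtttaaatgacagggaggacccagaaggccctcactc
The TCF/LEF core (CTTTGA), through which WNT signals act, stood in 10.2% of all windows, in 0 of the 13 windows of genes higher at both ages and in 6 of the 26 windows of genes lower at both ages. *Mmp9* had no window in the table used here.

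The largest falls were, like the rises, in genes of varied roles. *Crym*, a thyroid hormone binding protein, fell from 54.5 and 169 FPKM to 1.73 and 1.67 FPKM (log2 difference -5.17 ± 0.49, limma adjusted p = 0.000597). *Hal*, which turns histidine into urocanic acid, fell from 20.04 and 86.4 FPKM to 0.2 and 0.41 FPKM, and *Sult1a1*, a sulfotransferase of phenols, from 44.6 and 36.5 FPKM to 0.69 and 0.32 FPKM. In *Crym* and *Hal* the wild type libraries lay several-fold apart and still lay far above both mutant libraries. *Kcnip4*, a potassium channel subunit, fell from 16.3 and 39.5 FPKM to 0.32 and 0.31 FPKM, and *Slc36a2*, an amino acid transporter, from 13.1 and 43.4 FPKM to 0.34 and 0.27 FPKM. *Cited4*, a transcriptional coactivator, fell from 224 and 182 FPKM to 14.4 and 13.2 FPKM, and *Emb*, embigin of the cell surface, from 153 and 303 FPKM to 12.1 and 14.1 FPKM. *Ramp3*, a partner of the calcitonin receptor-like receptor, fell from 76.2 and 63.2 FPKM to 3.75 and 6.76 FPKM. These 8 calls, and those of *Aldh1a7*, *Cmtm8*, *Orm1* and *Fam196b*, held without any 1 P30 library. *Il1rn* was called in 2 of these 4 fits and *Ugt1a6b* in 1. The log2 differences of the 15 largest falls lay between -5.17 and -3.51. *Crym* is also a hair matrix gene. It made 24.05% of the sum of that list, and 169 of 348 FPKM in the second wild type library. The lower sum in mutant libraries given above thus holds the fall of *Crym* itself.

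In the WNT pathway *Rspo4*, *Lef1*, *Fzd1*, *Axin2* and *Dkk2* fell. *Rspo4*, an R-spondin, fell from 833 and 1195 FPKM to 148 and 136 FPKM (log2 difference -2.80 ± 0.72, limma adjusted p = 0.04996), a call that no fit without a P30 library made. *Lef1*, a transcription factor at the end of the pathway, fell from 203 and 203 FPKM to 70.8 and 91.7 FPKM. *Axin2*, a feedback inhibitor that is a widely used WNT target, fell from 13.4 and 12.4 FPKM to 3.21 and 2.58 FPKM. Both mutant libraries lay below both wild type libraries in these 3 genes, and the *Lef1* call too was lost in every fit without a P30 library. *Fzd1*, a WNT receptor, fell from 194 and 203 FPKM to 72.5 and 75.9 FPKM, and this call held without any 1 P30 library. *Wnt16*, a ligand, rose from 1.94 and 0.88 FPKM to 7.94 and 6.78 FPKM, and the receptors *Fzd10* and *Lgr6* rose too, *Fzd10* from 1.02 and 0.54 FPKM to 3.54 and 3.52 FPKM and *Lgr6* from 1.39 and 0.63 FPKM to 3.84 and 3.87 FPKM. *Rspo3* read 515 and 719 FPKM against 307 and 350.4 FPKM and did not pass (log2 difference -0.89 ± 0.46, limma adjusted p = 0.302). Of 11 tested ligands and R-spondins 1 rose and 1 fell, of 20 receptors and transducers 2 rose and 2 fell, and of 14 antagonists 2 fell. Beside these counts, 1.48% of all genes were called higher and 4.09% lower. The antagonists had a median log2 difference of -0.73, with 10 of 14 lower without overlap, against 37.9% of all genes. The fit of the 4 P30 libraries alone called 5 antagonists lower, the fits without 1 P30 library between 0 and 3, and that with rescaled libraries 1.

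Among BMP and activin genes 4 of 21 tested fell and none rose, against 4.09% of all genes called lower. *Inhba*, the activin A subunit, fell from 815 and 1648 FPKM to 283 and 321 FPKM (log2 difference -1.94 ± 0.48, limma adjusted p = 0.0445). *Inhbb*, the activin B subunit, fell from 3.5 and 4.83 FPKM to 0.61 and 1.06 FPKM. *Nbl1*, a secreted BMP antagonist, fell from 254 and 262 FPKM to 90.2 and 103 FPKM, and *Bambi*, a decoy receptor, from 118 and 196 FPKM to 69.1 and 75.2 FPKM. Both subunits of the activins and both inhibitors of BMP signals were thus lower, without overlap. Of 9 BMP target genes *Smad7* fell. With rescaled libraries 2 of the 21 and 0 of the 9 were called lower, and without 1 P30 library between 0 and 4 of the 21. Among 24 growth factor ligands *Ptn* rose and 4 fell, *Vegfc*, *Igf1*, *Pdgfd* and *Igf2*. *Igf1*, a growth signal to the hair matrix, fell from 50.7 and 94.4 FPKM to 16.3 and 24.3 FPKM, and *Vegfc*, a lymphatic growth factor, from 12.2 and 15.01 FPKM to 2.28 and 2.98 FPKM. *Fgf7*, another growth signal of the papilla, read 711 and 623 FPKM against 881 and 831 FPKM and did not pass (log2 difference 0.36 ± 0.37, limma adjusted p = 0.635).

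Some feedback inhibitors of receptor and MAP kinase signalling fell. In a list of 12 tested genes, chosen after values were seen, 6 fell and none rose, against 4.09% of all genes called lower. *Dusp4*, a MAP kinase phosphatase, fell from 41 and 88.4 FPKM to 7.03 and 8.57 FPKM (log2 difference -2.81 ± 0.33, limma adjusted p = 0.00165). *Spry1*, of the Sprouty family that inhibits receptor tyrosine kinases, fell from 95 and 138 FPKM to 25.9 and 26.9 FPKM, and this call held without any 1 P30 library. *Spry4*, *Dusp10*, *Spry2* and *Errfi1* also fell, with log2 differences of -1.73, -1.59, -1.33 and -1.21. Between 1 and 2 members were called without 1 P30 library, and 3 with rescaled libraries.

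Of 15 tested chemokines and cytokines 7 fell and none rose, against 4.09% of all genes called lower, with a median log2 difference of -1.31 that lay between -1.37 and -1.25 without 1 P30 library. *Cxcl14*, a chemokine of skin, fell from 692 and 1102 FPKM to 107 and 110.5 FPKM (log2 difference -2.995 ± 0.26, limma adjusted p = 0.000545), and the call held without any 1 P30 library. *Cxcl12*, the ligand of CXCR4, fell from 70.2 and 77.5 FPKM to 19.6 and 20.4 FPKM, while the receptor gene *Cxcr4* rose from 2.01 and 1.58 FPKM to 8.35 and 5.03 FPKM. *Cxcl5*, *Ccl7*, *Il34*, *Il6* and *Cxcl1* fell too. Of 11 complement genes 4 fell, among them *Cfb*, *Serping1* and *C1s1*. *Serping1*, which inhibits the first complement proteases, fell from 677 and 955 FPKM to 296 and 334 FPKM. In a list of 12 acute phase genes chosen after values were seen 8 fell, among them *Orm1* from 9.33 and 17.2 FPKM to 0.12 and 0 FPKM and *Hp*, haptoglobin, from 9.58 and 16.2 FPKM to 0.95 and 1.73 FPKM. *Il1rn*, which blocks the interleukin 1 receptor, fell from 26.8 and 33.6 FPKM to 0.64 and 0.58 FPKM. Macrophage and myeloid markers summed to 145 and 101 FPKM in wild type and 32.5 and 44.4 FPKM in mutant libraries, of which *S100a8* made 45.4%, and *S100a8* was the 1 fall among 8 tested members. *Csf1r* was at most 0.87 FPKM and *Adgre1* at most 0.37 FPKM. The part of myeloid cells in these falls was not tested. Without 1 P30 library between 1 and 5 chemokine and cytokine genes and at most 2 complement genes were called.

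In lists chosen after values were seen, 10 of 15 lipid storage and efflux genes and 12 of 17 enzymes of drug and retinoid metabolism fell and none rose, against 4.09% of all genes called lower. *Lpl*, lipoprotein lipase, fell from 75.8 and 151 FPKM to 23.6 and 27.7 FPKM, and *Pparg*, the adipogenic nuclear receptor, from 7.92 and 10.7 FPKM to 1.11 and 1.77 FPKM. *Apoe*, which carries lipids between cells, fell from 4730 and 7368 FPKM to 2361 and 2070 FPKM. The adipocyte markers *Adipoq* and *Plin1* were at most 0.6 and 4.85 FPKM, and the whole marker list summed to 212 and 424 FPKM in wild type and 155 and 181 FPKM in mutant libraries, of which *Cebpa* made 52%. Of 8 tested adipocyte markers 3 fell, *Pparg*, *Lpl* and *Dgat2*, and the part of adipocytes in them was not tested. Among the enzymes *Hsd11b1*, which activates glucocorticoids, fell from 32.99 and 55.2 FPKM to 2.78 and 2.93 FPKM, and *Cyp1b1*, a cytochrome P450, from 27.7 and 17.7 FPKM to 2.39 and 3.13 FPKM. *Aldh1a7* with *Aldh1a1*, and *Ugt1a6b* with *Ugt1a6a*, are near copies or share exons, so that their separate values are uncertain. Without 1 P30 library at most 5 lipid genes and between 5 and 11 enzymes were called. Of 10 neuropeptide genes, also chosen after values were seen, *Npy* rose while *Penk* and *Npvf* fell. *Penk*, which encodes enkephalins, fell from 197 and 328 FPKM to 21.8 and 34.8 FPKM (log2 difference -3.16 ± 0.28, limma adjusted p = 0.000551), and the call held without any 1 P30 library.

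Of 18 tested hair matrix and shaft genes 3 fell, *Crym*, *Krt86* and *Krt81*, against 4.09% of all genes. In 13 both mutant libraries lay below both wild type libraries, against 37.9% of all genes. The median log2 difference of the 18 was -1.08. *Krt71*, an inner root sheath keratin, read 83.04 and 32.1 FPKM against 12.98 and 15.8 FPKM and did not pass (log2 difference -1.78 ± 0.78, limma adjusted p = 0.222). Of 14 tested keratin-associated protein genes, a list chosen after values were seen, 11 fell, and *Krtap8-1* among them fell from 47.6 and 30.5 FPKM to 7.34 and 7.54 FPKM. These are structural genes of hair keratinocytes with near copies, so that values of single members are uncertain. With the 4 P30 libraries alone 9 hair matrix genes and 13 keratin-associated protein genes were called lower. Without 1 P30 library these counts lay between 1 and 4 and between 1 and 9, and with rescaled libraries they were 3 and 10.

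No tested senescence or arrest gene rose. *Cdkn2a*, which encodes p16, was at most 0.28 FPKM in the 4 libraries and was not tested. *Cdkn2b*, which encodes p15, fell from 16.7 and 19.3 FPKM to 4.63 and 7.38 FPKM (log2 difference -1.47 ± 0.37, limma adjusted p = 0.0481). Of 12 tested senescence and arrest genes 2 fell, *Cdkn2b* and *Cdkn1b*, and neither call was made without 1 P30 library or with rescaled libraries. Of 33 tested factors of the senescence-associated secretory phenotype 3 rose, *Mmp9*, *Mmp13* and *Igfbp5*, and 5 fell, *Cxcl5*, *Ccl7*, *Cxcl12*, *Il6* and *Cxcl1*. *Il6*, the best known cytokine of this phenotype, fell from 5.77 and 7.44 FPKM to 2.11 and 1.69 FPKM. With rescaled libraries 3 of the 33 were called higher and 3 lower. Beside the counts of both lists, 1.48% of all genes were called higher and 4.09% lower.

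Calls in several other pathways are given beside 1.48% of all genes called higher and 4.09% lower. Of 20 cholesterol synthesis genes *Idi1* and *Hmgcs1* rose, and 17 lay higher without overlap, against 18.6% of all genes. In this list 12 genes had an unadjusted p under 0.05, and with rescaled libraries 4 were called higher. Their median log2 difference was 0.76 and lay between 0.49 and 0.89 when 1 P30 library was left out. *Ndrg1*, a hypoxia-induced gene, fell from 303 and 445 FPKM to 43.7 and 48.6 FPKM and, with *Bnip3*, made the 2 calls among 21 glycolysis and hypoxia genes. Of 14 Notch genes *Heyl* rose while *Notch4* and *Notch2* fell. *H2-D1*, a class I molecule, fell from 581 and 569.9 FPKM to 248 and 275 FPKM as the 1 call among 12 antigen presentation genes. *Sdf2l1* was the 1 call among 19 unfolded protein response genes, *Nfil3* among 17 clock genes and *Ifitm3* among 15 interferon response genes, all lower. limma called 0 of 11 Hedgehog genes, with 4 at an unadjusted p under 0.05 and 2 called higher by the fit of the 4 P30 libraries alone. *Hhip*, an inhibitor of Hedgehog, read 810.1 and 688 FPKM against 1126 and 1040 FPKM, and *Ptch1*, the Hedgehog receptor and target, 30 and 21.7 FPKM against 67.98 and 68.3 FPKM (log2 difference 1.38 ± 0.54, limma adjusted p = 0.175). limma called 0 of 32 ribosomal protein genes, with 5 at an unadjusted p under 0.05 and 1 called by the fit of the 4 P30 libraries alone, and 26 lay higher without overlap. It called 0 of 26 respiratory chain genes, with 1 at an unadjusted p under 0.05 and 0 called by the fit of the 4 P30 libraries alone. Among 12 mitochondrially encoded genes, a list chosen after values were seen, *mt-Co3* alone rose, from 90.04 and 67.9 FPKM to 429.8 and 432 FPKM, and nuclear copies can share its reads.

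Few genes of the remaining cell type lists reached the level needed for the test. limma called 0 of 3 endothelial, 0 of 2 lymphocyte, 0 of 1 mast cell and 0 of 3 red cell genes tested, with 1, 2, 0 and 0 at an unadjusted p under 0.05 and 1, 0, 0 and 1 called lower by the fit of the 4 P30 libraries alone. *Tnnt1* was the 1 rise among 5 skeletal muscle markers, where 1.48% of all genes were called higher and 4.09% lower. *Pmp22*, a membrane protein of myelin and fibroblasts, fell from 294 and 378 FPKM to 87.5 and 96.3 FPKM as the 1 call among 9 Schwann cell and nerve markers, which summed to 598 and 685 FPKM against 315 and 358 FPKM.

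**Figure D4:**
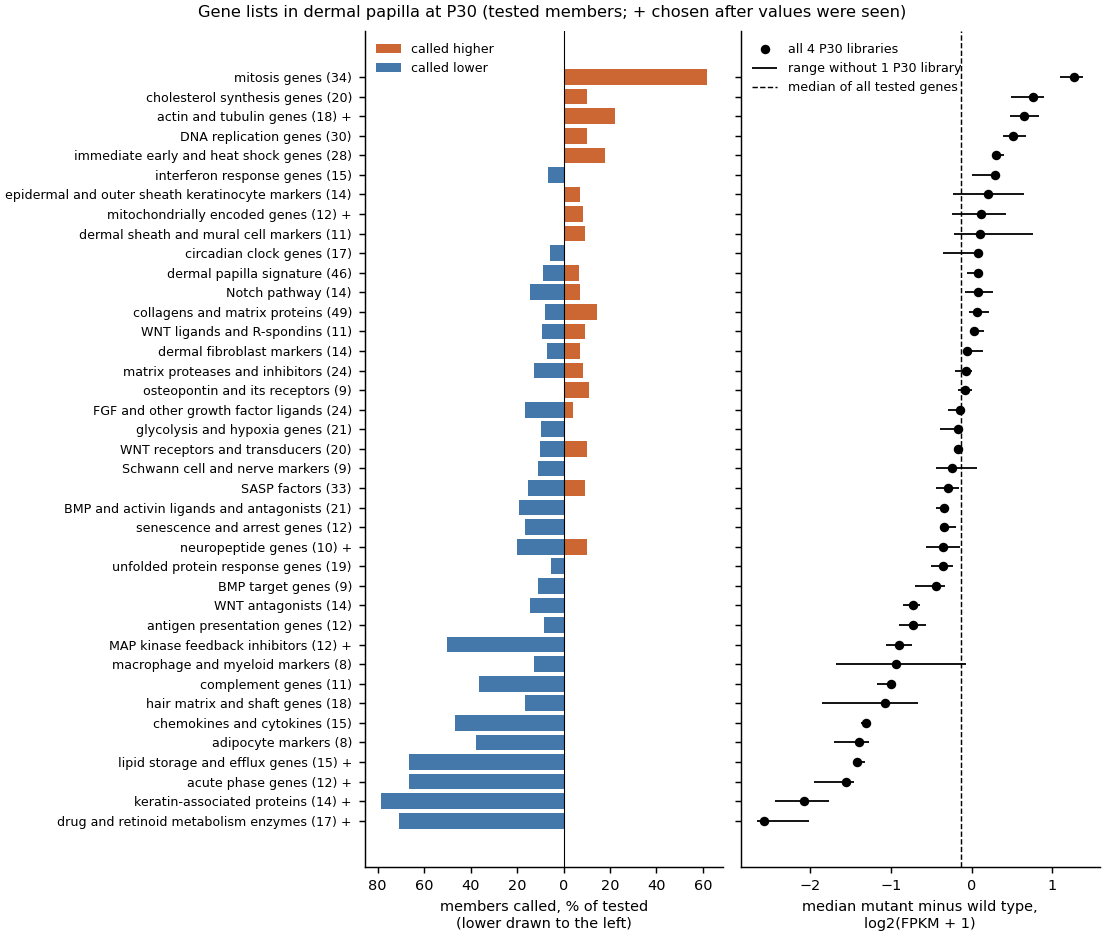
Each row is a gene list with at least 8 tested members (number in brackets) and at least 1 call, with a plus sign for lists chosen after values were seen. Left, the percent of tested members called higher or lower. Right, the median log2 difference with the range it took when 1 P30 library was left out, and the median of all genes as a dashed line at -0.13. Mitosis genes stand highest at 1.27 and metabolic enzymes lowest at -2.57.

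The same genes were read at P56, where wild type follicles rest and the order of the sexes was the other way round. Of the 11856 genes 588 (4.96%) rose and 684 (5.77%) fell in mutant papilla at P56. Wild type P56 libraries held more RNA of dermal sheath and mural cells, 5620 and 5035 FPKM against 1422 and 826 FPKM in sum, and of Schwann cell and nerve markers, 2246 and 1315 FPKM against 429 and 471 FPKM. They held less of the dermal papilla signature, 3780 and 9666 FPKM against 14110 and 16690 FPKM, and the part of this in the P56 differences was not tested. Of the 175 genes that rose at P30, 21 also rose at P56, which is 12% of the P30 list and 3.57% of the P56 list, and 16 fell, 9.14% and 2.34% of the lists. Of the 485 genes that fell at P30, 31 also fell at P56, 6.39% of the P30 list and 4.53% of the P56 list, while 119 rose, 24.5% and 20.2% of the lists.

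Genes that rose at both ages included *Spp1*, *Mmp9* and *Mmp13*, and were chosen for being called at both. *Spp1* read 50.3 and 66.8 FPKM in wild type and 539 and 611 FPKM in mutant cells at P56. *Mmp9* read 4.51 and 5.33 FPKM against 85.6 and 82.1 FPKM at that age, and *Mmp13* 1.02 and 0.29 FPKM against 64.6 and 58.4 FPKM. The difference of *Mmp13* was larger at P56 than at P30 (interaction log2 2.44 ± 0.45, limma adjusted p = 0.00816). All 3 stood higher at P56 than at P30 in both the wild type and the mutant means. *Col10a1*, a collagen of hypertrophic cartilage, rose from 0.21 and 0.25 FPKM to 6.03 and 3.68 FPKM at P30 and from 0.62 and 0.45 FPKM to 23.7 and 20.6 FPKM at P56. *Postn*, the matrix protein periostin, rose from 60.7 and 71.8 FPKM to 128 and 155 FPKM at P30 and from 101 and 112 FPKM to 478 and 365 FPKM at P56. *Cd24a*, a cell surface sialoglycoprotein, rose from 169 and 137 FPKM to 715 and 585 FPKM at P30 and from 25.6 and 101 FPKM to 252 and 393 FPKM at P56. The others included *Galnt9*, *Vwc2*, *Pfn2*, *Tmem158*, *Oxnad1*, *Ralgps2*, *Lrrc15*, *Cxcr4*, *Heyl*, *Ggt5*, *Gmnn*, *Gpnmb*, *Nuf2* and *Rpl29*. *Rpl29* has near copies that make its value uncertain.

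Genes that fell at both ages included *Ramp3*, *Pmp22* and *Cav1*, and were likewise chosen for being called at both. *Ramp3* fell from 98.2 and 91.3 FPKM to 13.4 and 38.05 FPKM at P56. *Pmp22* fell from 819 and 487 FPKM to 290.2 and 304 FPKM at P56, beside the lower sum of Schwann cell and nerve markers given above. *Cav1*, the coat protein of caveolae, fell from 196 and 119.6 FPKM to 53.8 and 50.3 FPKM at P30 and from 574 and 297 FPKM to 157 and 148 FPKM at P56. *Gas6*, a ligand of TAM receptors, fell from 87.6 and 48.1 FPKM to 17.98 and 19.8 FPKM at P30 and from 263 and 367 FPKM to 102 and 77.04 FPKM at P56. *Rcan1*, an inhibitor of calcineurin, fell from 46.8 and 71.4 FPKM to 9.81 and 11.4 FPKM at P30 and from 195 and 121 FPKM to 63.2 and 68.7 FPKM at P56. In each of these genes the groups did not overlap at either age. *Errfi1*, a feedback inhibitor of the EGF receptor, fell at both ages too.

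Other genes went opposite ways at the 2 ages. *Corin* fell at P30 and rose at P56, from 1.3 and 6.86 FPKM to 129 and 108 FPKM, and the difference between the ages passed its own test (interaction log2 7.14 ± 0.67, limma adjusted p = 0.000317). *Crym* rose from 7.83 and 4.23 FPKM to 32.4 and 60.9 FPKM at P56 after its fall at P30 (interaction log2 7.91 ± 0.70, limma adjusted p = 0.000241). *Hal*, *Aldh1a7*, *Cited4*, *Kcnip4* and *Cdkn2b* were likewise called lower at P30 and higher at P56. *Npy* rose at P30 and fell at P56, from 499 and 144 FPKM to 10.8 and 14.4 FPKM (interaction log2 -7.32 ± 0.94, limma adjusted p = 0.00145). *Ptn* did the same, from 414 and 165 FPKM to 12.5 and 31.1 FPKM at P56. For agouti the difference at P30 was larger than at P56 (interaction log2 -5.64 ± 0.53, limma adjusted p = 0.000317). Of the 660 genes called at P30 the interaction was called in 427 (64.7%), against 12.2% of all genes, and since the interaction holds the P30 difference itself this share is a description. Rise and fall here mean mutant against wild type at 1 age. From P30 to P56 mean *Corin* went from 451.2 to 4.08 FPKM in wild type and 85.61 to 118.4 FPKM in mutant cells. Mean *Npy* went from 2.465 to 321.5 FPKM and from 21.32 to 12.62 FPKM. For *Crym* the means went from 111.6 to 6.03 and from 1.7 to 46.63 FPKM. For agouti they went from 33.38 to 34.89 and from 3962 to 89.93 FPKM. Wild type follicles grow at P30 and rest at P56, and sex was reversed. Age, hair cycle stage and sex cannot be told apart in these differences.

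**Figure D5:**
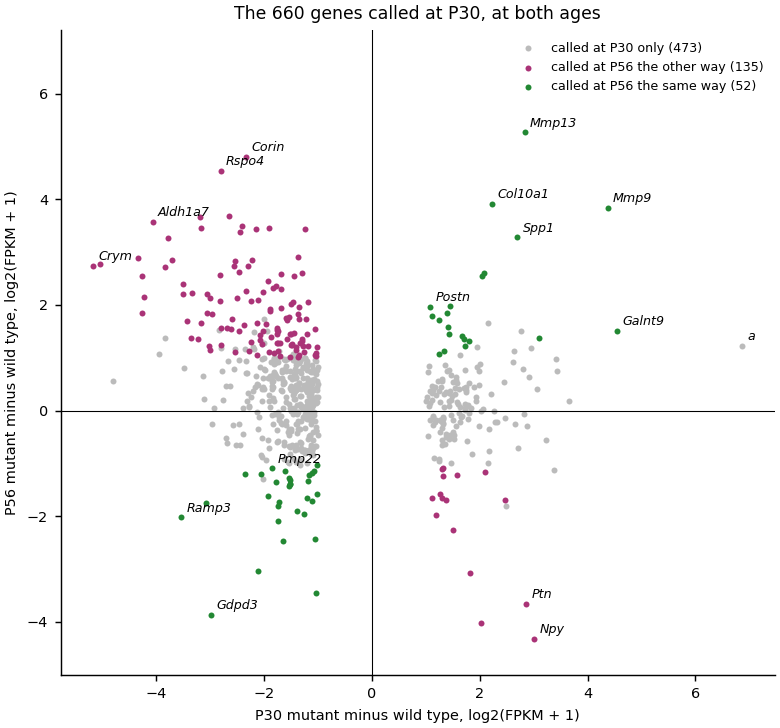
Each point is 1 of the 660 genes called at P30, with the P30 mutant minus wild type difference on the x axis and the P56 difference on the y axis, both in log2(FPKM + 1). Green marks the 52 genes called the same way at P56 and purple the 135 called the other way, with *Mmp9* and *Spp1* at the upper right and *Corin* and *Rspo4* at the upper left.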

How the data were processed

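Cells sorted from dorsal skin were sequenced in bulk, with full-length cDNA per the study's methods. The authors aligned reads with STAR 2.4.2 and deposited FPKM values per gene, estimated with RSEM on GENCODE genes of GRCm38. The authors' own count test could not be repeated, since the deposited tables hold FPKM and not counts. Low values did not step in whole reads (at most 2.58% of genes in the fullest bin). The depth of each library is thus unknown beyond the average range that the study's methods state, and no counting interval is given. The dermal papilla and bulge tables were normalized separately.

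Values were tested as log2(FPKM + 1), which understates changes of low genes, with limma 3.58.1 in R 4.3.3 (mean-variance trend, 1 mean for each of 4 groups, 8 dermal papilla libraries, two-sided). Genes needed 1 FPKM in 2 of the 4 P30 libraries. Of 12255 protein-coding genes that passed, 399 on X or Y were left out and 10 without a position kept. p-values were adjusted (Benjamini-Hochberg) over 11856 genes, and a call needed an adjusted p under 0.05 and 2-fold. The interaction is the P56 minus the P30 difference. The script was tested on simulated data.

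Named genes were the 15 largest rises and the 15 largest falls among calls whose higher group averaged at least 5 FPKM and whose groups did not overlap, up to 4 called members of each list (or its 2 most abundant members where none was called), and a fixed set of pigment, papilla, senescence and osteopontin genes. Other names were chosen after their values were seen. The comparison and the 40 lists were chosen with earlier results of these data known, and 8 more lists after the values were seen. 19 alternatives were run. Positions are from GENCODE on GRCm38 and promoter windows from RefSeq, matched by symbol for 75.7% of tested genes. Some genes that meet these rules are not reported here.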

Additional observations from a re-analysis of the deposited data

Results flagged for a closer look

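Among the 15 largest rises, the 15 largest falls, the fixed set of genes and the 52 genes called the same way at both ages, 34 are given here for which the mutant difference at P56 differed from that at P30 in a test of the difference itself (limma interaction, adjusted p under 0.05 and 2-fold or more). Each value is the P56 difference minus the P30 difference in log2(FPKM + 1). It was negative, with a lower difference at P56, in 14 genes, at -7.32 for *Npy*, -6.51 for *Ptn*, -5.64 for *a*, -4.50 for *Spock1*, -3.78 for *Tmem215*, -3.46 for *Csn1s1*, -3.17 for *Chn2*, -3.04 for *Galnt9*, -2.64 for *Ncald*, -2.44 for *Sox18*, -2.40 for *Plekha4*, -2.28 for *Lemd1*, -1.53 for *Mki67* and -1.39 for *Dmpk*. It was positive in 20 genes, at 1.59 for *Lef1*, 1.69 for *Col10a1*, 2.44 for *Mmp13*, 3.12 for *Rspo3*, 3.45 for *Dct*, 3.51 for *Cdkn2b*, 5.02 for *Emb*, 5.21 for *Ugt1a6b*, 5.36 for *Sult1a1*, 5.91 for *Fam196b* and 6.11 for *Slc36a2*. The larger ones were 6.54 for *Cmtm8*, 6.55 for *Orm1*, 6.81 for *Il1rn*, 7.05 for *Cited4*, 7.14 for *Corin*, 7.21 for *Kcnip4*, 7.64 for *Aldh1a7*, 7.82 for *Hal* and 7.91 for *Crym*. Of 131 other list members called at P30, 94 passed the same test, 69 with a positive and 25 with a negative value. The interaction was called in 12.2% of all genes. Since it holds the P30 difference itself, counts among genes picked for that difference are a description. The libraries of each genotype were of opposite sex at the 2 ages, and wild type P56 libraries held more dermal sheath RNA. Wild type follicles also grow at P30 and rest at P56. Age, hair cycle stage, sex and the cells caught thus cannot be told apart in these differences. Of the 34 genes *Mki67*, *Rspo3* and *Dct* were not called at P30. All groups held 2 libraries, too few to test a single library as far from its group.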

How the results depend on the processing

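Against 660 called genes, of which 175 were higher and 485 lower, a pseudocount of 5 FPKM gave 396, with 102 higher and 294 lower. With no filter on low values 438 genes were called, 107 of them higher, and with the 4 P30 libraries alone 1042, of which 341 were higher. Quantile normalization called 273 genes higher, and rescaling to a common median ratio called 319 lower. Leaving out 1 of the 8 libraries gave between 70 and 874 calls, 18 to 262 of them higher and 52 to 612 lower. The interaction was called in 1447 genes, and in 399 to 1869 without 1 library. The other alternatives kept the counts within 1.5 times. Alternatives gene by gene were run for 42 genes, the 15 largest rises, the 15 largest falls and the fixed set, of which 34 were called. Leaving out 1 library moved the log2 difference of *Sox2* between -0.030 and 0.51. These genes kept direction and side of the threshold in 737 comparisons with an alternative, lost the call in 54, gained it in 3, and among them *Sox2* alone changed sign, without the second mutant P30 library. The replicate numbers do not pair the libraries, since same-numbered deviations from group means correlated between -0.104 and 0.122. With a replicate block 157 genes were higher and 442 lower, and the interaction was called in 1458. Depth is not known from these values, and 2 libraries a group limit the test at low FPKM. The cause of these changes was not tested.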

Other observations

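*Cartpt*, which encodes a secreted neuropeptide, read 8435 and 2.29 FPKM in the 2 wild type P30 libraries and 3573 and 3463 FPKM in the mutant ones. At P56 it read 0.46 and 2015 FPKM in wild type and 9.73 and 1.30 FPKM in mutant libraries. It was the only protein-coding gene at 100 FPKM or more whose 2 libraries of a P30 group lay over 20-fold apart, and it was not called at P30 (limma adjusted p = 0.527).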
